A study of Caenorhabditis elegans with 2 samples.

Results

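Binding of the homeodomain protein CEH-88 was examined at the nuclear genes that encode the mitochondrial respiratory chain and the ATP synthase of Caenorhabditis elegans. The members were defined by gene symbol, in a set proposed with earlier results of these data known. They are all protein-coding genes whose symbol starts with cox-, nuo-, nduf-, atp-, asb-, asg-, ucr-, cyc-2, sdha-, sdhb- or sdhd-, together with isp-1, mev-1, gas-1 and lpd-5. This gave 51 genes of the 19973 nuclear protein-coding genes in Ensembl release 115. By role, 14 belong to complex I, 5 to complex II, 6 to complex III, 2 encode cytochrome c, 7 encode subunits of complex IV, 8 encode factors that assemble complex IV, and 9 belong to the ATP synthase (complex V). The RefSeq product names fitted these roles, apart from genes whose product is named only by a protein domain or a database code (cox-15, for example).

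The respiratory chain sits in the inner mitochondrial membrane. Complex I takes electrons from NADH and complex II takes them from succinate. Both pass them through ubiquinone to complex III, cytochrome c carries them on to complex IV (cytochrome c oxidase), and complex IV hands them to oxygen. The proton gradient built up on the way drives the ATP synthase. A few core subunits are encoded by mitochondrial DNA, while all others, complex II as a whole included, are made from nuclear genes and imported. In worms, mutations in several of these genes (isp-1, mev-1, gas-1, nuo-6) are known to change lifespan and resistance to oxidative stress.

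Chromatin immunoprecipitation and sequencing (ChIP-seq) had been carried out on whole L1 larvae of strain OP593, hatched after bleaching, held starved, and collected at an age of 6 h. The strain carries the transgene wgIs593, which joins the tags TY1, EGFP and 3xFLAG to ceh-88, with unc-119(+) as the rescue marker in an unc-119 (tm4063) background, and an antibody against GFP was used. There was 1 group, with 2 biological replicates numbered 1 and 2, and both carry the same transgene, marker and background. Chromatin was sonicated to between 200 and 800 bp. The labels do not name the promoter that drives the transgene, and in whole animals the cells in which a site was bound cannot be identified. Because no untagged strain or input was analysed here, binding by CEH-88 and recovery of the same regions by any such immunoprecipitation cannot be told apart.

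The deposited peak lists differed in size between the replicates, with 1128 peaks past the threshold of the irreproducible discovery rate (IDR) in replicate 1 and 698 in replicate 2. The conservative list of the whole series, which is the list used here unless another is named, held 1171 peaks, and a second thresholded list of the whole series held 1349. Ranked lists, which also hold regions below the threshold, held 122189 regions for the whole series, 85787 for replicate 1 and 98792 for replicate 2. Signal is the authors' own measure of peak strength in each list. It has no stated unit, so levels are compared mainly within a list. Where the replicates are set side by side, the raw values include any difference in scale between their lists. The median signal was 115.1 in the conservative list. The sources used here give no read depth. The lists hold regions on 6 nuclear chromosomes and 0 on mitochondrial DNA, so the subunits encoded there have no value.

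A gene was called bound when a peak summit fell in its promoter window, which starts 1000 bp before any of its transcript starts and ends 200 bp after it. Of the 51 genes, 13 were bound in the conservative list (25.5%, exact 95% interval 14.3% to 39.6%), against 945 of all 19973 protein-coding genes (4.73%), a ratio of 5.39. Each replicate alone gave a similar picture. In replicate 1, 15 of the 51 genes were bound (29.4%) against 4.66% of all genes. In replicate 2, 9 of the 51 were bound (17.6%) against 3.09%. In the second thresholded list of the whole series, 15 were bound (29.4%) against 5.25%. The intervals cover the counting of genes only, and these genes are not replicates of a condition. Across all 4 lists 17 genes were bound in at least 1, 8 in every one, and 34 in none. The matching shares of all genes were not computed, so these counts only describe the members.

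**Figure D1:**
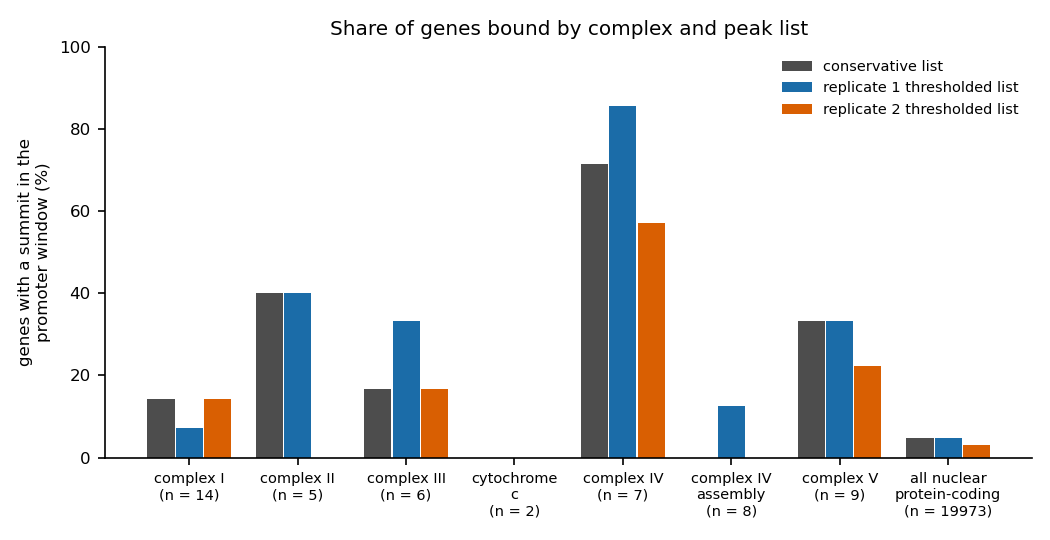
Percentage of genes with a peak summit in the promoter window (vertical axis), for each respiratory complex and, at the right, for all nuclear protein-coding genes, with n genes under each group and 1 bar per peak list; there are no error bars. Complex IV stands highest in every list shown, with 71.4% of its 7 subunit genes bound in the conservative list, and the bars for all genes sit between 3.09% and 4.73%.

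The bound genes were spread unevenly over the complexes. In the conservative list 5 of the 7 subunit genes of complex IV were bound, 3 of 9 for the ATP synthase, 2 of 5 for complex II, 1 of 6 for complex III and 2 of 14 for complex I. Neither of the 2 cytochrome c genes and none of the 8 assembly factors of complex IV was bound in that list. Structural genes therefore made up all 13 bound genes, out of 43 such genes. With so few genes per complex these shares are descriptions, and no difference between complexes was tested. In replicate 1 the complex IV subunits were bound in 6 of 7 cases, and in replicate 2 in 4 of 7.

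The sequences under 8 of the bound summits follow. They are shown because the region under the summit is the part of each promoter that was recovered. They also show a pair of short sequences, AATGCA and ACGCGC, chosen for their high counts under the summits of the 13 bound genes. Their recurrence at these genes follows from that choice and carries no test. Of the 13 summit sequences 9 hold either of the pair, against 20.1% of all conservative summit windows. Among those not printed, ACGCGC lies at cox-5B, AATGCA at atp-1, and neither at cox-6A, cox-4 or asg-2. Each printed sequence is the 101 bases centred on the summit, 5′ to 3′ on the strand of the gene, read from the RefSeq copy of the assembly (WBcel235, the same as ce11). Capitals mark AATGCA or ACGCGC on either strand, as TGCATT and GCGCGT where they lie on the other one. The first, at cox-5A (III:12905155-12905255, plus strand), holds neither. Those at cox-6B (III:2785982-2786082, plus strand) and atp-2 (III:5228113-5228213, plus strand) hold AATGCA. The next pair, at ucr-2.2 (X:15173641-15173741, plus strand) and sdha-1 (X:8546199-8546299, minus strand), hold ACGCGC. Both sequences occur at nduf-2.2 (III:6464409-6464509, plus strand), mev-1 (III:10334092-10334192, plus strand) and nduf-11 (II:11345779-11345879, minus strand).
cox-5A: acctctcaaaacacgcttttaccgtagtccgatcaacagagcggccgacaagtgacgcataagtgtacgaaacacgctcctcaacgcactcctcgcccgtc
cox-6B: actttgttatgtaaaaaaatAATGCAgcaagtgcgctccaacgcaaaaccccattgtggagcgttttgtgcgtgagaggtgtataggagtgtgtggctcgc
atp-2: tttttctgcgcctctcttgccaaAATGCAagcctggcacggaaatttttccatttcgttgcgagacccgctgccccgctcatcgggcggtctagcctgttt
ucr-2.2: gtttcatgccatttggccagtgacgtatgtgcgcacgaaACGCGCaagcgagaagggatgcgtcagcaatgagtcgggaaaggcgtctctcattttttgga
sdha-1: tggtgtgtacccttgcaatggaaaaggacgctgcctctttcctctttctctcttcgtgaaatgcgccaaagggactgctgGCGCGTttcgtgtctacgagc
nduf-2.2: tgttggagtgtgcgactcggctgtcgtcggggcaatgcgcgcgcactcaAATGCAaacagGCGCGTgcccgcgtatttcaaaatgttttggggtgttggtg
mev-1: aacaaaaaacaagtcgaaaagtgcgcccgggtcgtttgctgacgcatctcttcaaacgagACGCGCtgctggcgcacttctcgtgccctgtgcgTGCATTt
nduf-11: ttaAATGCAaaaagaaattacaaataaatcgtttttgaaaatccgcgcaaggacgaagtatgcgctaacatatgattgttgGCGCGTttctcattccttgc

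Complex IV is the terminal oxidase of the chain, and its nuclear subunits surround the catalytic core made from mitochondrial DNA. The gene of highest signal among the 51 was cox-5B, a nuclear subunit gene, with a conservative signal of 741, which ranked 11 of the 1171 peaks. Its signal was 532 in replicate 1 and 195 in replicate 2, where it ranked 4 and 52 in the ranked lists. The summit lay 27 bp upstream of the start, between genes (I:9788578-9788821), and no other protein-coding gene's window held it. The next was cox-5A, which encodes subunit 5A, with a conservative signal of 515 (rank 30), 281 in replicate 1 and 236 in replicate 2. Its summit lay 286 bp upstream in a gap between genes (III:12905088-12905307), and its sequence is the first of those above. Both replicates placed it at nearly the same rank, 30 in replicate 1 and 27 in replicate 2.

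Next among the subunit genes, cox-6B had a conservative signal of 241 (rank 175), 179 in replicate 1 and 71.2 in replicate 2. Its summit lay 170 bp upstream of the nearest of its 2 starts, inside an intron of the longer transcript (III:2785953-2786137). That summit also lay 84 bp upstream of Y71H2AM.20 and 820 bp upstream of nduc-2, which encodes a complex I subunit, so the peak cannot be assigned to 1 gene. The gene for subunit 6A, cox-6A, had a conservative signal of 201 (rank 251), 110.1 in replicate 1 and 93.5 in replicate 2. Its summit was the second most distant of the bound genes, 757 bp upstream (III:5080874-5080973). The peak overlapped the start of an snRNA gene on the minus strand, F54D8.7 (III:5080798-5080898), 69 bp from the summit. The summits of replicates 1 and 2 lay nearer to that gene, at -45 and -61 bp from the conservative one. The peak therefore cannot be assigned to 1 gene. Subunit 4 is encoded by cox-4, which had a conservative signal of 102 (rank 688), 67.0 in replicate 1 and 37.7 in replicate 2, with the summit 476 bp upstream in an intron of a pseudogene on the other strand (I:13659406-13659801). In replicate 2 its region missed the threshold.

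Of the other subunit genes of complex IV, cox-7C was bound in replicate 1 alone, with a signal of 40.8 at a summit 135 bp downstream of the start, inside the coding sequence and also in the windows of F26E4.4 and F26E4.7. Replicate 2 had no region in the cox-7C window. The remaining gene, cox-6C, was bound in no thresholded list, with ranked signals of 16.5 in replicate 1 and 21.1 in replicate 2. Within the 7 subunit genes the replicate 1 signal thus ran over a wide range, 16.5 to 532.

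The assembly factors, which insert haem and copper and help to put the subunits together, were mostly without peaks. The gene for the haem farnesyltransferase, cox-10, was bound in replicate 1 (68.5, 91 bp upstream) and in the second whole-series list (84.5, 96 bp upstream), where the window of Y38E10A.33 held the same summit. Its strongest region in replicate 2 was another one, with a ranked signal of 30.7 at 723 bp upstream. The other 7 were bound in no thresholded list. The ranked signals given here for genes that are not bound are those of the strongest region anywhere in the window. In 12 of the 23 such genes with a region in both replicates the 2 summits lay more than 100 bp apart, so the values need not describe 1 site. Of the 7 cox-14 had the highest ranked signals, 92.2 in replicate 1 (rank 403, 146 bp upstream) and 46.2 in replicate 2 (rank 729, 169 bp upstream). Those values exceed those of several bound genes in the same lists, yet cox-14 is in no thresholded list and has no region in the whole-series ranked list. Its score was 1000 in replicate 1, above the lowest score of 831 in that replicate's thresholded list, and 822 in replicate 2, below the lowest of 830 there. It is 1 of 11 regions in replicate 1 with a score of at least 830 that the thresholded list lacks, out of 1139. The step that removed them was not examined here. No region in any of the 3 ranked lists used lay in the windows of cox-16 or cox-18.

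The ATP synthase makes ATP on a rotating head of alpha and beta subunits held by a peripheral stalk. The alpha subunit gene, atp-1, had the third highest conservative signal of the 51 genes, 341 (rank 85), with 201 in replicate 1 and 147 in replicate 2. Its summit was the only one downstream of a start, by 4 bp, within the 5′ UTR (I:12652171-12652374). The same summit lay 194 bp upstream of mcrs-1, which runs the other way, and 104 bp from the piRNA gene 21ur-12279. The beta subunit gene, atp-2, had 101 (rank 691), with 62.5 in replicate 1 and 38.5 in replicate 2, at a summit 254 bp upstream (III:5227965-5228360) that also lay in the windows of C34E10.10 and C34E10.12, 279 and 282 bp upstream of them. The catalytic head thus had both of its large subunits bound in every thresholded list.

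Among the other ATP synthase genes, asg-2, which encodes a subunit g, had the lowest conservative signal of the 13, 78.8 (rank 929), with 43.8 in replicate 1 and 38.9 in replicate 2. It passed the threshold in neither replicate's own list, although the replicates differed little in value. The summit lay 201 bp upstream (X:6840859-6841254) and 337 bp upstream of glr-6, a glutamate receptor gene. A stalk subunit b gene, asb-2, was bound in replicate 1 (72.0, 271 bp upstream) and in the second whole-series list (86.9, 270 bp upstream). Its strongest region in replicate 2 was another one, with a ranked signal of 33.8 at 876 bp upstream. The value of asb-2 in that list was higher than that of asg-2, which the conservative list kept. The gene for the oligomycin sensitivity protein, atp-3, had 37.6 in replicate 1 and 16.3 in replicate 2. The last of these genes (atp-4, atp-5, asb-1) had ranked signals between 8.05 and 32.2 in replicate 1 and between 7.68 and 19 in replicate 2, and asg-1 had no region in any ranked list.

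Complex II, succinate dehydrogenase, is shared by the respiratory chain and the citric acid cycle and has no subunit from mitochondrial DNA. Its flavoprotein gene, sdha-1, had a conservative signal of 139 (rank 453), with 98.9 in replicate 1 and 47.1 in replicate 2. The summit lay 228 bp upstream (X:8546051-8546446), within the noncoding RNA gene D2021.5 and 45 bp upstream of the snoRNA gene D2021.6. This peak therefore cannot be assigned to 1 gene. The membrane anchor gene mev-1 had 97.8 (rank 719), with 62.8 in replicate 1 and 41.5 in replicate 2, and its summit 135 bp upstream (III:10333944-10334339) was nearer to jmjd-4, at 124 bp. Both genes passed the threshold in replicate 1 and not in replicate 2. The iron-sulphur subunit gene sdhb-1 had a ranked signal of 26.6 in replicate 1 and no region in replicate 2, and the second anchor gene, sdhd-1, had 22.3 in replicate 1 and 22.8 in replicate 2. The second flavoprotein gene, sdha-2, had no region in any of the ranked lists.

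In complex III, which passes electrons from ubiquinol to cytochrome c, ucr-2.2 was bound. It belongs to the peptidase M16 family, like the core proteins of the complex in other animals. Its conservative signal was 147 (rank 417), with 61.9 in replicate 1 and 80.4 in replicate 2, so here replicate 2 was the higher. The summit lay 213 bp upstream, between genes (X:15173493-15173888). The core 1 gene ucr-1 was bound in replicate 1 alone (53.1, 140 bp upstream), at a summit that the window of ddx-15 also held, and it had no region in replicate 2. The Rieske iron-sulphur gene isp-1 was not bound, with ranked signals of 23.4 in replicate 1 and 17.8 in replicate 2. Cytochrome c, the mobile carrier between complexes III and IV, has 2 genes, and neither was bound. The ranked signals of cyc-2.1 were 17.6 in replicate 1 and 36.6 in replicate 2, and those of cyc-2.2 were 8.89 in replicate 1 and 4.02 in replicate 2.

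Complex I is the largest complex of the chain and had the most genes here. The gene nduf-2.2 encodes a 49 kD subunit and had a conservative signal of 176 (rank 319), with 97.2 in replicate 1 and 66.7 in replicate 2. Its summit was the most distant of the 13, 763 bp upstream (III:6464261-6464656). It lay within the noncoding RNA gene T26A5.10 and nearer to dlc-1, which encodes a dynein light chain, at 680 bp. This peak also cannot be assigned to 1 gene. The membrane subunit gene nduf-11 had 92.0 (rank 775), with 35.3 in replicate 1 and 56.6 in replicate 2, at a summit 209 bp upstream between genes (II:11345631-11346026). It passed the threshold in replicate 2 and not in replicate 1, unlike any other of the 13.

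The other 12 complex I genes were bound in no thresholded list. Of all members bound in none, cox-14 had the highest replicate 1 signal and 2 complex I genes came next. These were nduf-6, an iron-sulphur protein gene by its product name, with 44.1 in replicate 1 and 4.08 in replicate 2, and nduf-9, an alpha subcomplex gene, with 41.8 in replicate 1 and 18.7 in replicate 2. The nduf-6 values belong to different regions, 382 bp upstream in replicate 1 and 989 bp upstream in replicate 2, while the nduf-9 regions lay 402 and 381 bp upstream. The lowest replicate 1 signals were also in complex I. They were 4.68 at nuo-2 (16.9 in replicate 2), 4.91 at nuo-5 and 5.56 at gas-1, and the last 2 had no region in replicate 2. No ranked list had a region in the windows of lpd-5 or nuo-6.

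**Figure D2:**
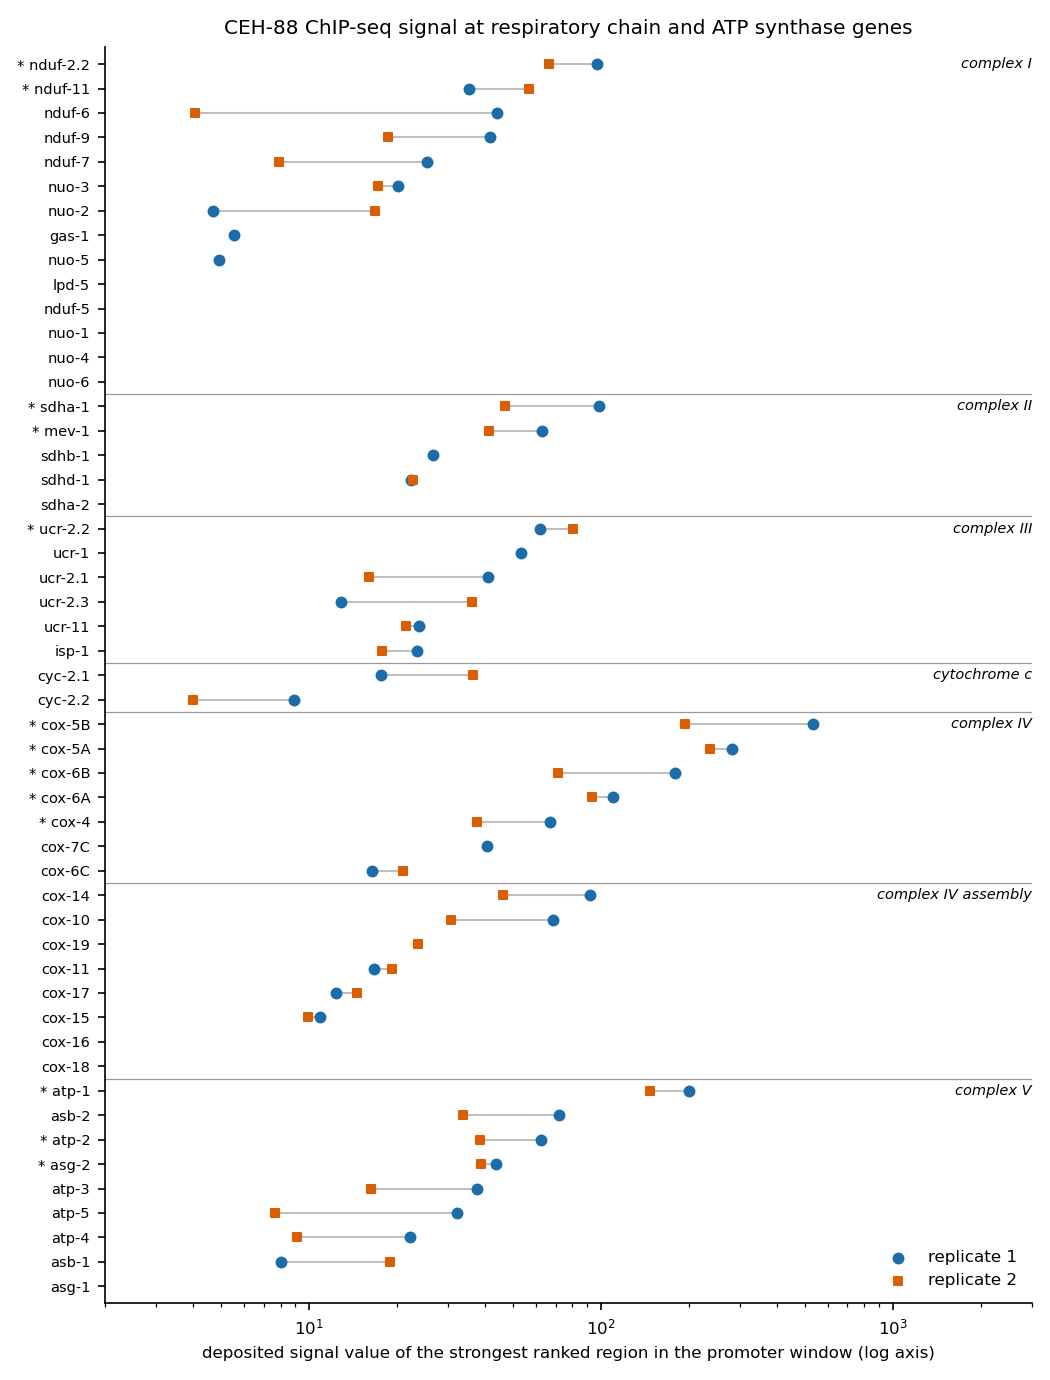
Signal of the strongest ranked region in the promoter window of each of the 51 genes, on a log axis without a stated unit, in replicate 1 (circles) and replicate 2 (squares), joined by a line where both replicates have one; asterisks mark the 13 genes bound in the conservative list a missing symbol means that no region lay in the window, and the symbols of a gene that is not bound may belong to different regions. The highest symbols are at cox-5B (532 in replicate 1) and cox-5A (236 in replicate 2), and complex I has the most rows with symbols missing.

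Several subunits are encoded by a pair or trio of related genes, and within each set a single gene was bound in the conservative list, or none. With sdha-1 bound on chromosome X, sdha-2 had no region. With asg-2 bound on X, asg-1 had none. With nduf-2.2 bound, its relative gas-1, which encodes the same 49 kD subunit, had a ranked signal of 5.56 in replicate 1. With ucr-2.2 bound, ucr-2.1 had 41.2 in replicate 1 and 16.1 in replicate 2, and ucr-2.3 had 12.9 in replicate 1 and 36.3 in replicate 2. Of the subunit b genes, asb-2 was bound in 2 of the 4 lists, while asb-1 had 8.05 in replicate 1 and 19 in replicate 2. These sets were picked out after their values were seen and were not tested.

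The replicates can be compared at the 13 bound genes, since each had a region in both ranked lists. Signal was higher in replicate 1 at 11 of them and higher in replicate 2 at ucr-2.2 and nduf-11. This followed the lists as a whole, as 76.8% of the 1152 conservative peaks with a region in both replicates were higher in replicate 1. The median log2 ratio of replicate 1 to replicate 2 was 0.54 at the 13 genes (SD 0.61) and 0.36 at all those peaks (SD 0.50). The genes at the ends of this range were cox-5B, whose ratio of 2.72 was above that of 98.3% of the peaks, and nduf-11, whose log2 ratio of -0.68 had only 1.65% of the peaks below it. At cox-6B too the replicates differed, with a ratio above that of 96.8% of the peaks, while at cox-5A the log2 ratio was 0.25. The rank of cox-5B was thus much higher in replicate 1 than in replicate 2, while cox-5A stood at a similar rank in each. With 2 replicates, none of these differences has a test.

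**Figure D3:**
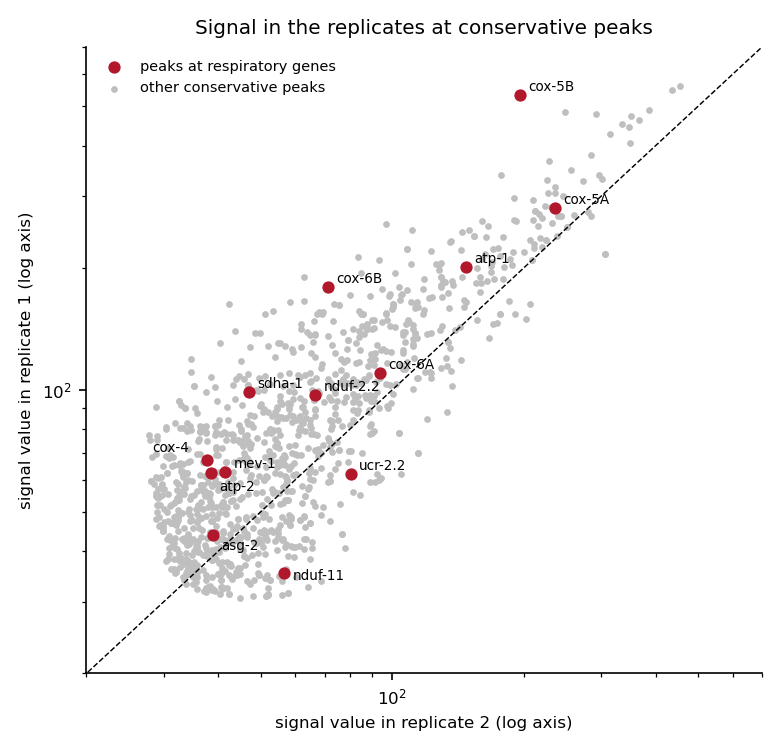
Signal of the strongest overlapping region in replicate 1 (vertical, log axis) against replicate 2 (horizontal, log axis) at the 1152 conservative peaks with a region in both, with the peaks at respiratory genes in red and named, and the other peaks in grey; the dashed line marks equal values. Of the 13 red points, 11 lie above the line, with ucr-2.2 and nduf-11 below it and cox-5B and cox-6B farthest above.

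The strength of the peaks at these genes was close to that at other bound genes. The median conservative signal was 147 at the 13 genes and 134 at the other 932 bound genes. Of the 13, 8 lay above 135, the median of all bound genes. Position was also much alike, with a median of 213 bp upstream at the 13 genes and 248.5 bp at the others. Summits lay upstream of the start at 12 of 13 genes and at 95.5% of the others, and within 300 bp of it at 10 of 13 and at 61.2% of the others. The replicates placed the summit within 73 bp of each other at all 13 genes, with a median of 10 bp. Such closeness is partly built in, since each replicate's region was chosen by overlap with the conservative peak. The same gap was not measured at the other peaks. Of the 13 summits 8 were intergenic, 2 intronic, 2 in exons of noncoding genes and 1 in a 5′ UTR, where the shares over all conservative summits were 62.2%, 19%, 10.8% and 3.59%. A noncoding gene lay within 250 bp of 4 of the 13 (atp-1, cox-6A, nduf-2.2, sdha-1), against 24.9% of all summits.

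**Figure D4:**
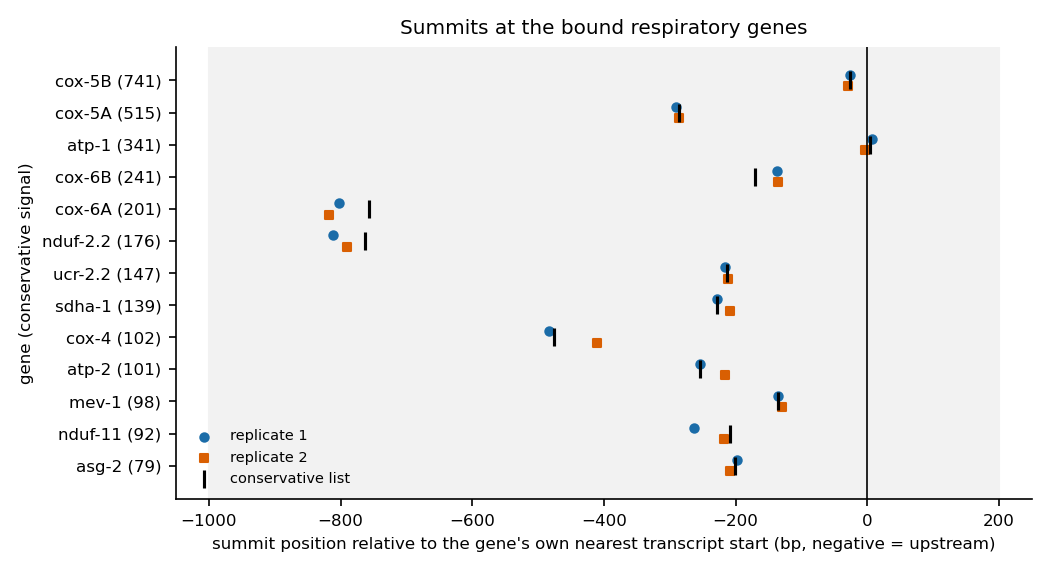
Position of the summit (horizontal, bp from the gene's own nearest transcript start, negative upstream) at the 13 bound genes, ordered from the top by conservative signal, which stands in brackets in the signal's own scale; circles are replicate 1, squares replicate 2 and ticks the conservative list, and the grey band is the promoter window. Most summits cluster between 300 bp upstream and the start, with cox-6A (757 bp) and nduf-2.2 (763 bp) farthest away.

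A summit in the window of more than 1 protein-coding gene was found at 6 of the 13 genes (atp-1, cox-6B, nduf-2.2, atp-2, mev-1, asg-2), against 37.6% of the 711 conservative summits in any promoter window. At 10 of the 13 the respiratory gene's own start was the nearest start of a protein-coding gene, and the exceptions were cox-6B, nduf-2.2 and mev-1. Starts of noncoding genes were not counted. At cox-6A, sdha-1 and nduf-2.2 a noncoding gene lay nearer to the summit than the gene's own start. Its nearest base was at 69 bp (F54D8.7), 0 bp (D2021.5) and 0 bp (T26A5.10). At 7 of the 13 genes, cox-5B, cox-5A, cox-6A, ucr-2.2, sdha-1, cox-4 and nduf-11, the window of no other protein-coding gene held the summit. These 7 include the 2 peaks of highest signal.

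Many worm genes lie close behind a neighbour on the same strand and can be transcribed together from the first gene of an operon. The annotation used here marks no operons, so spacing was used in its place, a choice made after the values were seen. Of the 51 genes, 16 had a same-strand neighbour ending within 500 bp upstream, and 3 of these 16 were bound (18.8%), against 3.29% of all 3612 such genes. Of the other 35, 10 were bound (28.6%), against 5.05% of 16361. For 5 of the 13 unbound genes behind a neighbour, the first gene of the run was bound (38.5%), against 9.91% of all 3493 such genes. These were cyc-2.1 behind the ribosomal protein gene rpl-20 (conservative signal 818), cox-11 behind lin-54 (476), cox-18 behind Y55F3AR.2 (453), ucr-11 behind dad-1 (204) and nuo-4 behind syf-2 (156). Counting a gene as reached through its own window or that of the first gene gave 18 of the 51 (35.3%), against 6.46% of all genes. Whether any of these pairs is transcribed together was not tested.

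The genes below threshold can be set against all genes through the ranked lists. In the whole-series ranked list 40 of the 51 genes had a region in the window (78.4%), against 81.2% of all genes. In replicate 1 the count was 41 (80.4%), against 69.0%, and in replicate 2 it was 37 (72.5%), against 74.2%. Such regions are so common that their presence says little about a gene, and their strength was used instead. Among the 38 genes not bound in the conservative list, those with a region had a median signal of 33.5 in the whole-series list, against 24.9 for all unbound genes with one. In replicate 1 the medians were 22.9 at these genes and 16.1 at unbound genes in general, and in replicate 2 they were 18.3 and 14.8. In the whole-series list 71.1% of the unbound members had a region, against 80.3% of all unbound genes. With genes lacking a region placed last, the median unbound member stood at percentile 50.7 of unbound genes in that list. The same percentile was 68.0 in replicate 1 and 41.3 in replicate 2, so the replicates fell on opposite sides of the middle. The 6 genes without a region in any of the 3 ranked lists were asg-1, cox-16, cox-18, lpd-5, nuo-6 and sdha-2.

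By chromosome, 6 of the 13 members on III were bound, against 7.54% of all genes there, and 3 of the 6 on X, against 3.11%. On I the count was 3 of 15, against 6.71%, and on II it was 1 of 6, against 5.16%. None of the 6 members on IV or the 5 on V was bound, where 4.42% and 2.90% of all genes were.

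Genes of the same pathway that the symbols do not cover were also looked up. Of 40 such genes 6 were bound in the conservative list (15%), against 4.73% of all genes. Of the 6, 4 passed the threshold in both replicates, mai-1 in replicate 1 only and mpc-2 in neither. Of the genes not bound in the conservative list, mai-2, sucl-1 and mdh-2 passed it in replicate 1 only and idhg-1 in replicate 2 only. Of 5 further genes of the chain and ATP synthase 2 were bound. These were cyc-1, the cytochrome c1 gene of complex III, with a conservative signal of 161 at 308 bp upstream (99.9 in replicate 1 and 65.6 in replicate 2), and mai-1, related to the inhibitor of the ATP synthase, with 93.7 at 503 bp upstream (50.6 in replicate 1 and 32.3 in replicate 2). None of the 8 genes of ubiquinone synthesis was bound, and of these coq-3 had the highest ranked signals, 32.0 in replicate 1 and 16.3 in replicate 2.

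In the pyruvate dehydrogenase and citric acid cycle list 2 of 20 genes were bound (10%), against 4.73% of all genes. The gene dld-1, for the dihydrolipoamide dehydrogenase that the 2-oxoacid dehydrogenases share, had a conservative signal of 260.2, at 232 bp upstream (189 in replicate 1 and 62.7 in replicate 2). The aconitase gene aco-2 had 128 at 332 bp upstream (69.1 in replicate 1 and 53.3 in replicate 2), in a window shared with the translation factor gene eef-1B.1. Further genes of this list passed the threshold in 1 replicate's own list. They were sucl-1 (ranked signal 96.3) and mdh-2 (57.7) in replicate 1 and idhg-1 (54.1) in replicate 2. Of 7 carrier genes 2 were bound (28.6%). The ADP/ATP carrier gene ant-1.1 had 304 at 25 bp upstream (189 in replicate 1 and 129 in replicate 2), a summit that lay also in the windows of T27E9.2 and abcf-2, and the pyruvate carrier gene mpc-2 had 66.5 at 509 bp upstream (35.0 in replicate 1 and 33.7 in replicate 2). A further 19 complex I genes carry symbols that start with ndua, ndub, nduc, ndus or nduv. Of these, found after the values were seen, 5 were bound (26.3%, against 4.73% of all genes), namely nduc-2 (241, the peak it shares with cox-6B), ndua-8 (177), ndua-2 (165), ndub-8 (127) and nduv-3 (76.6).

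The windows under the summits were rich in G and C. The median over the 101 bases was 53.5% at the 13 genes, from 36.6% at nduf-11 to 59.4% at atp-1, and 47.5% at all 1171 conservative summits. In the flanks, 200 to 300 bp away, the medians were 38.1% at the 13 genes and 35.6% at all summits. Over the promoters from 250 bp upstream to 50 bp downstream of each gene record's start, the 51 genes had a median of 35.2% and all genes 34.2%.

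A set of 12 short motifs was searched on both strands in the 101 bases under the summits: TAATTA and TAATCA (homeodomain cores), ATCGAT and ATTGAT (factors of the ONECUT and cut classes), GTAAACA (forkhead), CACGTG (E box), TGCGCA (NRF1 core), GATAAG (for GATA factors), TGACGTCA (the cAMP response element), the repeat GAGAGA, and also CTGCGTCT and TTTTTTTT. Of the 13 windows 3 held any of them, against 47.0% of all conservative summits. Within 100 bp of the summit the count was 10 of 13, against 71.1%. The matches were TAATCA at cox-4, TGCGCA and GAGAGA at ucr-2.2 and GAGAGA at sdha-1. TAATTA was in none of the 13 windows, and in 2.56% of all summit windows. GAGAGA, the most frequent of the set, was in 2 of the 13 and in 19.6% of all summit windows, and CTGCGTCT was in 0 and in 7.77%. In the promoters of all 51 genes, ATCGAT was found at 15 (29.4%), against 12.3% of all promoters of the same length. It was in 0 of the 13 summit windows, and in 3.67% of all summit windows. Within 100 bp of the summit ATCGAT was at 4 of the 13, against 8.37% of all summits, and ATTGAT at 1, against 14.7%. In the promoters ATTGAT, of the same class, went the other way, at 11 (21.6%), against 30.7%. TAATTA was found at 13 (25.5%), against 15.6%, and GATAAG at 5 (9.80%), against 16.8%. CACGTG was in none of the 51 promoters and in 5.84% of all. TAATTA and TAATCA share letters but not the whole match, and ATCGAT and ATTGAT likewise. A match is a run of letters and not a site.

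Hexamers were then counted without a fixed list in the same windows, and 24 occurred in at least 4 of the 13. The highest count, 6 of 13, was reached by AATGCA and by ACGCGC, which were therefore chosen for their counts here and carry no test. AATGCA lay under the summits at atp-1, cox-6B, nduf-2.2, atp-2, mev-1 and nduf-11, and in 8.54% of all conservative summit windows. ACGCGC lay under those at cox-5B, nduf-2.2, ucr-2.2, sdha-1, mev-1 and nduf-11, and in 13.0% of all. Both were present at the 3 genes whose windows close the set printed above, against 1.45% of all summit windows. The centres of AATGCA lay from 1.5 bp (nduf-2.2) to 46.5 bp (mev-1) from the summit, and those of ACGCGC from 8.5 bp (ucr-2.2) to 33.5 bp (nduf-11). Promoters from 250 bp upstream to 50 bp downstream are longer than the summit windows, so their shares are not comparable with those above. In the promoters of all 51 members, AATGCA was found at 7 (13.7%) and ACGCGC at 6 (11.8%), against 19.9% and 5.93% of all promoters. For the 38 unbound members alone the counts were 4 (10.5%) and 1 (2.63%). Because the hexamers were chosen at bound genes, a low share at unbound ones carries no test. The 9 windows with either hexamer had a G and C content between 36.6% and 59.4%, and the other 4 between 38.6% (cox-4) and 54.5% (cox-5A). The part of base composition in these counts was not tested.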

How the data were processed

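The authors deposited peak lists in a format with a score, a signal value, the −log10 of a q value and a summit for each region, on assembly ce11 per the labels. The deposited score follows the IDR on a log scale, up to 1000, and was at least 830 in each thresholded list. The deposited signal is the authors' measure of peak strength, without a stated scale. The −log10 q values were not used in any result. The sources used here name no aligner or peak caller. The ranked list of the whole series was the one whose input coordinates match the replicates' own regions, and its 8 columns of values per replicate were not used.

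Genes and transcript starts came from Ensembl release 115 (WBcel235). All regions ended within the chromosome lengths of the RefSeq copy of that assembly. Python 3.11.15 with pandas 2.3.3, numpy 2.4.6 and scipy 1.17.1 assigned summits to promoter windows, after a check on simulated regions. A replicate's signal at a gene was that of its strongest ranked region with a summit in the window, and in the comparison of replicates at peaks that of the strongest region overlapping the peak by at least 1 bp. Exact intervals are Clopper-Pearson at 95%. Only 1 group was analysed, so no test was run, and read depth, and with it the sampling error of each value, is unknown. The gene set, the complexes, the other pathway genes and the 12 motifs were chosen with earlier results of these data known. Named genes are all members bound in any thresholded list, the 3 highest and 3 lowest others by replicate 1 signal, and up to 4 bound pathway genes per list. Values of other members and of unbound pathway genes, the hexamers, the spacing of genes and the further complex I genes were added after values were seen. Alternatives covered the window, the list, the score, the rule of assignment and the motif window.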

Additional observations from a re-analysis of the deposited data

How the results depend on the processing

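The count of bound respiratory and ATP synthase genes, 13 of 51 in the conservative list, lay between 9 and 15 under every alternative, and its ratio to the share of all genes between 4.83 and 6.34. Windows of 500 bp and 2000 bp upstream gave 11 (without cox-6A and nduf-2.2) and 15 (with cyc-2.1 and ucr-11). Leaving out a replicate gave 9 (replicate 2 alone) and 15 (replicate 1 alone), with ratios of 5.71 and 6.31. Counting only the nearest protein-coding start gave 10 and lost cox-6B, mev-1 and nduf-2.2. The start of the gene record alone gave 12 and lost cox-6B. The median log2 ratio of the replicates was 0.54, or 0.45 after division by each list's median. The motif count moved most. It was 3 of 13 within 50 bp of the summit, 10 of 13 within 100 bp of it (71.1% of all summits), and 10 of 13 in promoters from 250 bp upstream to 50 bp downstream (84.9% of all promoters), and these windows hold more bases. No paired analysis was possible because there is only 1 group. Without counts or depth, a gene with no region cannot be told from one below detection, and the replicates give 2 values per gene.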
